A study of Saccharomyces cerevisiae with 8 samples.

Results

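Genes of Saccharomyces cerevisiae that are known from starved, non-dividing or dried cells were followed across strains with and without ESA1: SPG1, SPG4, SPG5, SIP18, GRE1, HBT1, PMA2, XBP1, RGI1 and RGI2. They are 10 of 5449 yeast genes with a probe set on the Affymetrix arrays, each was read by 1 probe set named in the platform annotation, and they lie on 6 chromosomes. The genes were selected on strain differences in signal on these same arrays, so their own values in all 3 comparisons are given as a description and carry no test.

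When glucose runs out, yeast cells switch to respiration, stop dividing and enter stationary phase, a resting state in which they withstand heat, starvation and drying. Many genes that are silent in growing cells are switched on for this, several of them through the stress factors Msn2 and Msn4 or the factor Gis1. SIP18 and GRE1 encode hydrophilins, small water-loving proteins that protect cells through drying and rewetting, SPG genes are needed by cells held in stationary phase, and RGI1 and RGI2 are a gene pair induced by respiratory growth.

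The study compared 3 strains. The double mutant (esa1 sup2-, 3 arrays) lacks ESA1, which encodes the essential histone acetyltransferase of the NuA4 complex, and lives through the suppressor mutation called SUP2 in the labels. The single mutant (ESA1 sup2-, 3 arrays) carries the suppressor mutation with ESA1 present, and the wild type (ESA1 SUP2, 2 arrays) has both genes. All strains were grown by the same protocol. Cultures of 10 mL were taken overnight to saturation at 30 °C in YPD, a rich medium holding 2% glucose. Each array received the label of 5 µg RNA extracted with hot phenol. Whether the strains had reached the same growth stage at harvest was not tested. The identity of SUP2 and the strain background are not in the labels, nor is how ESA1 was removed or whether replicates were separate cultures, so the p-values reflect only how far these arrays differ, which may be technical. In such bulk RNA, fewer cells in a state and less RNA per cell cannot be told apart.

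Values are MAS5 signals, the brightness of a gene's probe set on a linear scale. Log2 fold changes were taken on log2(signal + 121) and understate the change of dim genes, so the ratio of mean signals is given as well. A probe set is called where limma, fitted on all 8 arrays, gave an adjusted p under 0.05 over the 4398 yeast probe sets tested, and all 10 genes were among these. ESA1 itself read 1.19, 3.34 and 0.27 on the double-mutant arrays, 819, 894 and 877 in the single mutant and 1216 and 1067 in the wild type, as labelled. Each strain was run on its own fluidics station, so station and strain cannot be told apart.

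**Figure D1:**
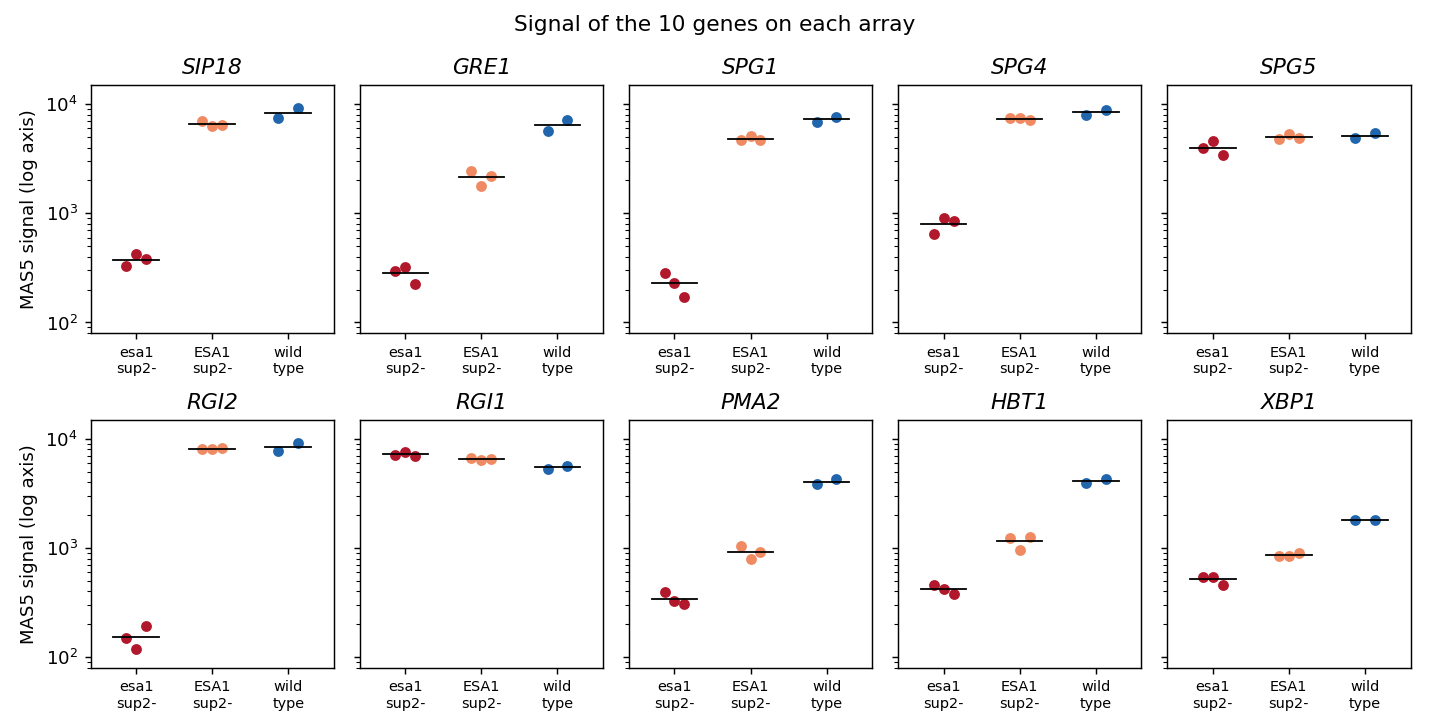
Signal of each of the 10 genes on every array, on a log axis, with double-mutant (esa1 sup2-), single-mutant (ESA1 sup2-) and wild-type arrays from left to right in each panel; points are arrays and the line is the mean. RGI2 read 119 to 193 in the double mutant alone, PMA2, HBT1, GRE1 and XBP1 lay between in the single mutant, and SPG5 and RGI1 differed little.

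The hydrophilin genes were both far lower in the double mutant, and differed in the single mutant. SIP18, needed for survival of drying and rewetting, had signals of 326, 422 and 381 in the double mutant, 6964, 6261 and 6503 in the single mutant, and 7418 and 9174 in the wild type. The mean in the double mutant was 17.5-fold lower than in the single mutant (log2 fold change -3.75, SE 0.10) and 22.0-fold lower than in the wild type (-4.08, SE 0.12). Single-mutant arrays of SIP18 all lay under the wild-type arrays, by 1.26-fold in the mean (-0.32, SE 0.12).

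GRE1, the related hydrophilin gene, had signals of 296, 321 and 225 in the double mutant, 2419, 1762 and 2205 in the single mutant, and 5706 and 7148 in the wild type. The 3 strains did not overlap. Its mean was 7.58-fold lower in the double mutant than in the single (log2 fold change -2.48, SE 0.14), and 3.02-fold lower in the single mutant than in wild type (-1.54, SE 0.16). Against the wild type the double mutant was 22.9-fold lower, close to the 22.0-fold of SIP18, while at the single-mutant step the log2 fold changes were -1.54 for GRE1 and -0.32 for SIP18.

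Of the SPG genes followed here, SPG1 and SPG4 were far lower in the double mutant and SPG5 slightly lower. SPG3, not one of the genes followed and named after its values were seen, averaged 1250 in the double mutant, 1611 in the single mutant and 2159 in the wild type. SPG1, required for survival at high temperature in stationary phase, read 281, 229.8 and 173 in the double mutant, 4651, 5121 and 4702 in the single mutant, and 6868 and 7634 in the wild type. The double mutant lay 21.2-fold under the single mutant (log2 fold change -3.84, SE 0.11) and 31.8-fold under the wild type (-4.41, SE 0.13), and the single mutant 1.5-fold under the wild type (-0.58, SE 0.13).

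SPG4, which has the same known requirement, read 647, 903 and 841 in the double mutant, 7509, 7417 and 7108 in the single mutant, and 7996 and 8932 in the wild type. It was 9.21-fold lower in the double mutant than in the single (log2 fold change -3.03, SE 0.11) and 10.6-fold lower than in the wild type (-3.23, SE 0.12). The single mutant and the wild type differed in SPG4 by a log2 fold change of -0.20 (SE 0.12), which was not called, although their arrays did not overlap.

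SPG5, whose protein helps to assemble proteasomes in resting cells, read 3943, 4603 and 3409.6 in the double mutant, 4800.0, 5316 and 4928 in the single mutant, and 4929 and 5386 in the wild type. Its mean was 1.26-fold lower in the double mutant than in the single (log2 fold change -0.33, SE 0.10), with double-mutant replicate 2 close to single-mutant replicate 1. Single-mutant and wild-type arrays overlapped (log2 fold change -0.04, SE 0.12). The calls of SPG5 in the double mutant ended with median centring of the arrays, against the single mutant without single-mutant replicate 2, and against the wild type without wild-type replicate 2.

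RGI1 and RGI2, the paired genes of respiratory growth, differed from each other. RGI2 had signals of 151, 119 and 193 in the double mutant, 8122, 8149.99 and 8186 in the single mutant, and 7755 and 9145 in the wild type. The mean in the double mutant was 52.9-fold lower than in the single mutant (log2 fold change -4.92, SE 0.11) and 54.8-fold lower than in the wild type (-4.97, SE 0.12). Among 4398 probe sets, that of RGI2 had the most negative log2 fold change of the double mutant against the wild type. That rank belongs to the log2 scale used, which understates the change of dim genes. By the ratio of mean signals RGI2 was not the lowest. ESA1 was 714-fold lower in the double mutant than in the wild type, at a log2 fold change of -3.36. Single-mutant arrays of RGI2 lay between the wild-type arrays (log2 fold change -0.05, SE 0.12, not called).

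RGI1 read 7169.8, 7576 and 6985.5 in the double mutant, 6623, 6377 and 6554 in the single mutant, and 5319 and 5667 in the wild type. The 3 strains did not overlap, and RGI1 was the only gene of the 10 that was higher in both mutants. Its log2 fold change was 0.39 (SE 0.06) for the double mutant and 0.24 (SE 0.06) for the single mutant, each against the wild type. Against the single mutant the double mutant was higher by 0.15 (SE 0.05), but with quantile normalization it was called lower (-0.11). Against the wild type the call of the double mutant ended with quantile normalization (0.10). The call of the small difference between the mutants ended with 7 other settings, which were the fit with no intensity trend, the module block and leaving out double-mutant replicate 1 or 2 or any single-mutant array.

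PMA2 and HBT1, genes of the cell surface and cell shape, had lower signals in the single mutant and lower still in the double mutant. PMA2, a little-used isoform of the plasma membrane proton pump, read 397, 325 and 304 in the double mutant, 1049, 798 and 916 in the single mutant, and 3832 and 4300.1 in the wild type. It was 4.42-fold lower in the single mutant than in wild type (log2 fold change -2.01, SE 0.13), 2.69-fold lower in the double mutant than in the single (-1.17, SE 0.11), and 11.9-fold lower in the double mutant than in the wild type (-3.18, SE 0.13). PMA1, the main and closely related pump gene, ran the other way, with 6436, 6088 and 5404 in the double mutant, 3329, 3468 and 3305 in the single mutant, and 3428 and 3479 in the wild type. PMA1 rose in the double mutant against the single mutant (log2 fold change 0.80, SE 0.07, limma adjusted p = 2.1e-05) and against the wild type (0.77, SE 0.08, limma adjusted p = 2.8e-05). Whether the probe set of either gene also binds RNA of the other was not tested.

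HBT1, whose protein is a target of the ubiquitin-like Hub1 and acts in shaping mating projections, read 457, 424 and 379 in the double mutant, 1246, 956 and 1249.7 in the single mutant, and 3949 and 4249 in the wild type. The single mutant lay 3.56-fold under the wild type (log2 fold change -1.74, SE 0.12), the double mutant 2.74-fold under the single mutant (-1.23, SE 0.11), and the double mutant 9.76-fold under the wild type (-2.97, SE 0.12). No arrays of different strains overlapped.

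XBP1 encodes a repressor that is made under stress and in resting cells and that is known to hold down cyclin genes. It read 542, 545 and 462 in the double mutant, 838, 846 and 899 in the single mutant, and 1799 and 1802 in the wild type. Its mean was 1.67-fold lower in the double mutant than in the single (log2 fold change -0.63, SE 0.08), 2.09-fold lower in the single mutant than in wild type (-0.97, SE 0.09) and 3.49-fold lower in the double mutant than in the wild type (-1.59, SE 0.09). The strains did not overlap.

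**Figure D2:**
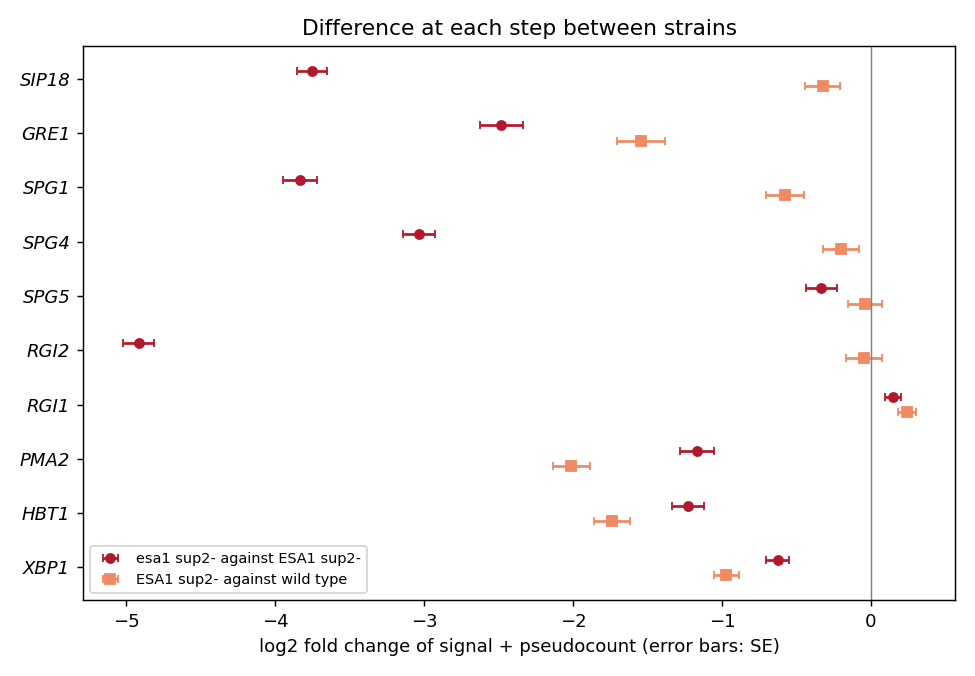
Log2 fold change of each gene for the double versus the single mutant (circles) and the single mutant versus wild type (squares), with error bars of 1 SE from the limma fit. PMA2, HBT1 and XBP1 lie further from 0 in the single mutant versus wild type (-2.01, -1.74 and -0.97), while SIP18, SPG1, SPG4 and RGI2 lie at -3.03 to -4.92 in the double versus the single mutant.

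By strain, the genes thus formed 3 sets, described from the same values that chose them. For SIP18, SPG1, SPG4 and RGI2 the double mutant stood far from the other strains (log2 fold changes of -3.03 to -4.92 against the single mutant), while the single mutant lay -0.05 to -0.58 from the wild type. In the latter 2 strains SIP18, SPG4 and RGI2 read 6261 to 9174, where the brightest probe set of any kind read 8694 to 9956. Whether compression of bright signals narrowed that step was not tested. GRE1, PMA2, HBT1 and XBP1 lay further down in the single mutant, at -0.97 to -2.01 versus wild type, and at -0.63 to -2.48 in the double versus the single mutant. Arrays of the 3 strains did not overlap for these 4 genes, nor for SPG1, SPG4, SIP18 and RGI1. SPG5 and RGI1 had log2 fold changes of -0.37 to 0.39 over the 3 comparisons. The 2 mutant comparisons share the single-mutant arrays, so their values are set side by side and not compared by a test.

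In the double mutant against the wild type 9 of the 10 genes were called lower and 1 higher, where 36.6% of all probe sets were called lower and 37.9% higher. Of those 9, 8 were at least 2-fold lower on the log2(signal + 121) scale, against 11.5% of all probe sets. Their arrays did not overlap for any of the 10 genes, 9 lower and 1 higher, beside 40.0% and 41.8% of all probe sets. The median log2 fold change of the 10 genes was -3.21, beside 0.01 over all probe sets. Over all probe sets 74.5% were called in either direction.

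In the double versus the single mutant 9 were again called lower and 1 higher, beside 35.8% and 31.8% of all probe sets, and 7 were at least 2-fold lower, beside 6.68%. No arrays overlapped here either, beside 37.3% of all probe sets lower and 33.5% higher without overlap. The median of the 10 genes was -1.85, beside -0.02 over all probe sets. Of all calls in this comparison 47.0% were higher, and 60.0% were with median centring.

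In the single mutant versus wild type 6 were called lower, 1 higher and 3 (SPG4, SPG5 and RGI2) were not called, beside 22.1% lower and 28.5% higher over all probe sets. Only PMA2, HBT1 and GRE1 were called at least 2-fold lower here, as were 1.39% of all probe sets. Arrays did not overlap for 7 lower genes and 1 higher gene, beside 37.4% and 40.4% of all probe sets. The median of the 10 genes was -0.45, beside 0.01. SIP18 was no longer called here without any 1 of the single-mutant arrays or without wild-type replicate 2 (log2 fold change -0.17), nor with the fluidics module or the replicate number as a block, nor with the smaller pseudocount tried. SPG1 was not called without wild-type replicate 2 (-0.50), and RGI1 not without wild-type replicate 1 (0.20) or with median centring (0.19). Of all probe sets 2227 were called, and 1436 or 1406 without wild-type replicate 1 or 2.

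**Figure D3:**
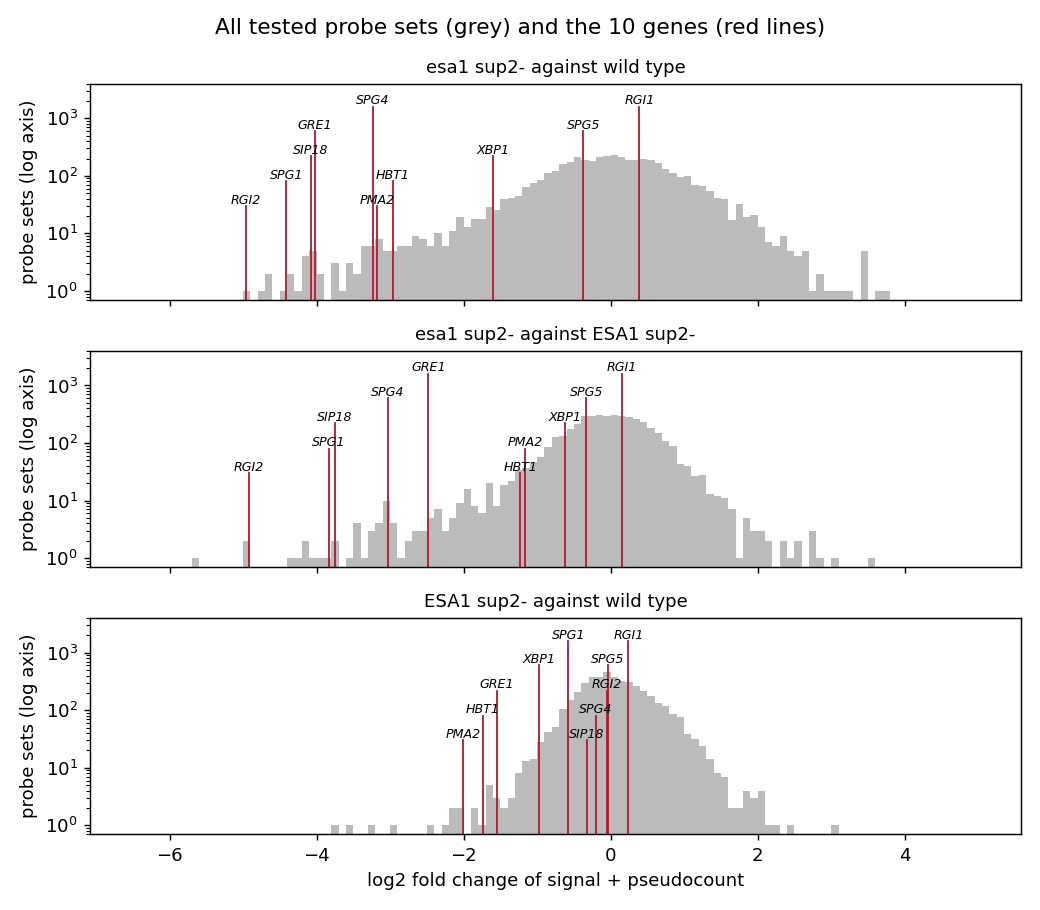
Log2 fold changes of all 4398 tested probe sets (grey histograms, 0.1 wide bins, log count axis) in each comparison, with the 10 genes as red lines of arbitrary height. At least 2-fold lower are 8 of the 10 genes in the top panel, 7 in the middle panel and 3 (PMA2, HBT1 and GRE1) in the lowest.

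Replicate spread differed between genes and strains. The coefficient of variation in the double mutant was 23.8% for SPG1 and 24.3% for RGI2, the dimmest readings of these genes, against 0.39% for RGI2 in the single mutant. Even there the lowest RGI2 reading was 10.1 times the background bound of its array, which is the 99th percentile of probe sets for genes outside the yeast gene table, and no gene of the 10 read below it on any array. At the other end, the highest reading among the 10 genes was 6985.5 to 9174 per array, where the brightest probe set of any kind read 8694 to 10839. Whether bright signals are compressed there was not tested.

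The arrays of each station were run in numbered modules, and the same numbers recur across the strains. Because each strain had its own station, a shared number is not a shared module. The differences below pair arrays by number only and do not separate station from strain. For arrays of module number 1, 2 and 3 the double minus single-mutant difference in log2(signal + 121) was -4.72, -4.92 and -5.12 for RGI2, -3.67, -3.99 and -3.61 for SIP18 and -4.16, -3.57 and -3.78 for SPG1. For the single mutant minus the wild type, module numbers 1 and 2 gave -2.10 and -1.92 for PMA2, and -1.92 and -1.68 for HBT1.

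Markers of other states also differed between the strains, not always at the same step as these genes. A list of 12 ribosome biogenesis genes, which are high in growing cells, summed to signals of 30034 to 33349 in the double mutant, 16022 to 16814 in the single mutant and 8364 to 8399.95 in the wild type. All 12 were called higher in either mutant against the wild type, beside 37.9% (double) and 28.5% (single) of all probe sets. In the double versus the single mutant 10 were called higher, beside 31.8%. A list of 11 spore genes summed to 416 to 432 in the double mutant, 669 to 778 in the single mutant and 6988 to 7621 in the wild type. Without SPS100, the spore gene that passed the filter on dim probe sets, the sums were 282 to 328, 286 to 420 and 1309 to 1376 in that order, and none of the 11 lay below the background bound on all arrays of a strain. The part of either list's genes in the results above was not tested.

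Other genes of the same pathways came from 6 lists drawn up from general knowledge, with earlier results of these data known. Of the listed genes 80 were tested. In the double mutant against the wild type 39 were lower and 15 higher (67.5% called, beside 74.5% of all probe sets), and in the double versus the single mutant 27 were lower and 23 higher (62.5%, beside 67.6%). In the single mutant versus wild type 36 were lower and 7 higher (53.8%, beside 50.6%), and without wild-type replicate 2 only 20 and 3. All adjusted p-values below are limma's over the whole table. The genes given them are mostly the 2 called genes of smallest p per list and comparison. Such p-values belong to picked genes and do not describe a list.

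Among 20 other genes known to be induced in stationary phase, more were lower than higher in each comparison. In the double mutant against the wild type 16 were lower and 1 higher (median log2 fold change -0.89). In the double versus the single mutant these were 12 and 2 (median -0.34). In the single mutant versus wild type they were 13 and 0 (median -0.49). Of all probe sets, 36.6% and 37.9%, 35.8% and 31.8%, and 22.1% and 28.5% were called lower and higher, in the same order. These shares also stand beside the counts of the lists that follow. With median centring the double and the single mutant differed in 8 lower and 3 higher, and without wild-type replicate 2 the single mutant had 7 lower. SSA3, an Hsp70 chaperone gene of starved cells, averaged 191 ± 4.40 (SD, n = 3) in the double mutant, 2359 ± 322 (SD, n = 3) in the single mutant and 6271 ± 420.4 (SD, n = 2) in the wild type. SSA3 fell in all 3 comparisons, with log2 fold changes of -4.35 in the double mutant against the wild type (SE 0.11, limma adjusted p = 1.6e-08), -2.98 against the single mutant (SE 0.10, limma adjusted p = 5.3e-08) and -1.37 in the single mutant versus wild type (SE 0.11, limma adjusted p = 3.6e-05). MSC1 averaged 2571 ± 63.0 in the double mutant, 4406 ± 107 in the single mutant and 6497 ± 583 in the wild type, and fell in the double mutant against the wild type (-1.30, limma adjusted p = 6.2e-07) and the single mutant (-0.75, limma adjusted p = 1.7e-05).

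CTT1, the cytosolic catalase gene, took a different course. It averaged 1334 ± 354 (SD, n = 3) in the double mutant, 361 ± 75.9 (SD, n = 3) in the single mutant and 2564 ± 239 (SD, n = 2) in the wild type. It fell by 2.49 in the single mutant versus wild type (SE 0.20, limma adjusted p = 3.7e-05) and rose by 1.58 in the double versus the single mutant (SE 0.18, limma adjusted p = 7.9e-05), so that SPG1, SIP18 and RGI2 were lowest in one mutant and CTT1 in the other.

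The other hydrophilin and desiccation genes were split. Of 11 tested, 2 were lower and 2 higher in the double mutant against the wild type, 1 lower and 6 higher in the double versus the single mutant, and 6 lower and 2 higher in the single mutant versus wild type (3 lower without wild-type replicate 2). With quantile normalization 5 and 3 were lower in the double mutant, against the wild type and the single mutant. The hydrophilin genes HSP12 and STF2, named after their values were seen, averaged 7408 ± 955 and 6306 ± 337 in the double mutant (SD, n = 3 each) and 7915 ± 1287 and 6588 ± 136 in the wild type (SD, n = 2 each). Their log2 fold changes were -0.09 (SE 0.12) and -0.06 (SE 0.06) and were not called, but with quantile normalization both were called lower, at -0.33 and -0.33. TSL1, a subunit of the enzyme that makes the protectant sugar trehalose, rose by 1.10 in the double versus the single mutant (limma adjusted p = 4.0e-05) and fell by 1.17 in the single mutant versus wild type (limma adjusted p = 1.3e-04). NTH1, which breaks trehalose down, fell by 0.65 in the double mutant against the wild type (limma adjusted p = 5.2e-05). GRE2, a reductase gene that responds to stress, rose by 1.41 in the double versus the single mutant (limma adjusted p = 4.6e-05), and NOP6, a ribosome assembly gene, rose in both mutants against the wild type, by 1.58 in the double (limma adjusted p = 1.3e-06) and 1.11 in the single mutant (limma adjusted p = 5.5e-05).

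Regulators of entry into the resting state were split. Of 22 tested, 13 were lower and 6 higher in the double mutant against the wild type, 10 lower and 6 higher against the single mutant (5 and 8 with median centring, 7 and 7 with quantile normalization), and 13 lower and 2 higher in the single mutant versus wild type (8 lower without wild-type replicate 2). CAT8, an activator of genes for growth without sugar, averaged 94.2 ± 14.2 (SD, n = 3) in the double mutant, 678 ± 56.5 (SD, n = 3) in the single mutant and 1645 ± 33.2 (SD, n = 2) in the wild type. CAT8 fell in all 3 comparisons, with log2 fold changes of -3.04 in the double mutant against the wild type (limma adjusted p = 2.4e-08), -1.89 against the single mutant (limma adjusted p = 2.6e-07) and -1.15 in the single mutant versus wild type (limma adjusted p = 3.1e-05). IGO2, which protects mRNAs at the start of quiescence, fell by 1.65 in the double mutant against the wild type (limma adjusted p = 2.8e-07) and by 1.49 against the single mutant (limma adjusted p = 5.2e-07). GIS1, an activator of stationary-phase genes, fell by 0.70 in the single mutant versus wild type (limma adjusted p = 5.4e-04). MSN2 and MSN4, named after their values were seen, rose in the double versus the single mutant by 0.74 (limma adjusted p = 3.8e-05) and 0.69 (limma adjusted p = 2.7e-03). Against the wild type their log2 fold changes were 0.41 (SE 0.08) and 0.49 (SE 0.16) in the double mutant. In the single mutant versus wild type they were -0.34 (SE 0.08) and -0.21 (SE 0.16), the latter not called.

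**Figure D4:**
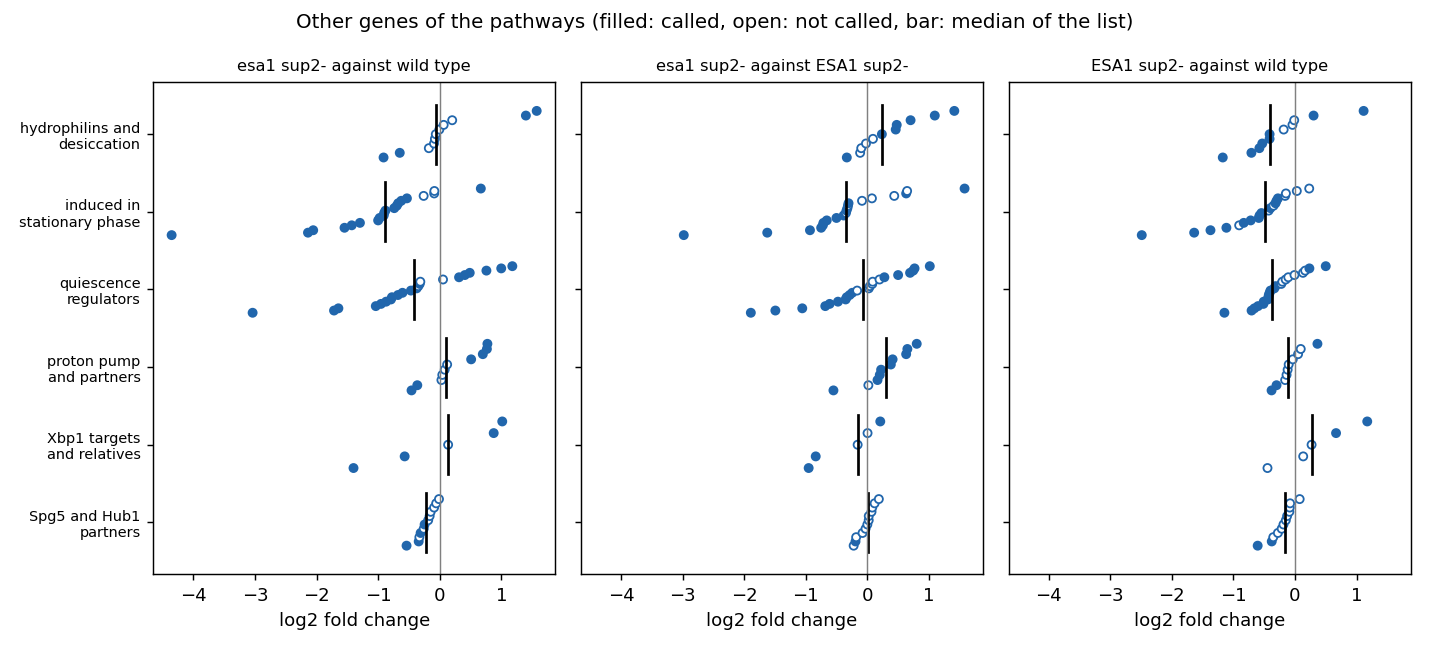
Log2 fold changes of the 80 tested genes of 6 related lists in the 3 comparisons, with filled points for called genes, open points for the others and a bar at each list's median. The stationary-phase list has its median at -0.89, -0.34 and -0.49 from left to right, while the hydrophilin and desiccation list has -0.06, 0.24 and -0.41.

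Partners of single genes were measured in 3 short lists. Besides PMA1, the small pump subunit gene PMP2 rose in the double mutant against the wild type (0.70, limma adjusted p = 1.5e-04) and the single mutant (0.65, limma adjusted p = 1.8e-04). On the list of the pump and its partners 8 of 10 genes were higher in the double than the single mutant. Of all probe sets 31.8% were called higher there. The 8 became 4 with quantile normalization, and 5 without double-mutant replicate 1 or single-mutant replicate 1 or 3. In the single mutant versus wild type the pump-regulating kinase gene PTK2 fell by 0.38 (limma adjusted p = 5.0e-03), a call that ended without wild-type replicate 1 (-0.35). The casein kinase gene YCK2 rose by 0.36 in that comparison (limma adjusted p = 0.025). The call of YCK2 ended without wild-type replicate 1 (0.45) or 2 (0.28), without single-mutant replicate 1 or 2, and with the module block. Of 5 tested targets and relatives of the Xbp1 repressor, 2 were higher and 2 lower in the double mutant against the wild type, 1 and 2 in the double versus the single mutant, and 2 and 0 in the single mutant versus wild type. CLN2 and CLN3, G1 cyclin genes, rose by 1.02 (limma adjusted p = 2.1e-04) and 0.88 (limma adjusted p = 1.2e-05) in the double mutant against the wild type. In the single mutant versus wild type they rose by 1.17 (limma adjusted p = 2.9e-04) and 0.67 (limma adjusted p = 2.5e-04). CLN1, also a G1 cyclin gene and named after its values were seen, was not called in any comparison (0.14, 0.004 and 0.13). In the double versus the single mutant CLN2 was not called (-0.16). CLN3 was called higher there by 0.21 (limma adjusted p = 0.029, 0.087 with quantile normalization). Besides quantile normalization, the call of CLN3 ended with the replicate number as a block and with only the 2 strains fitted. It also ended without double-mutant replicate 2, any 1 single-mutant array or either wild-type array. SWI6, a cofactor of G1 transcription, fell by 0.84 (limma adjusted p = 7.1e-05) and PHD1 by 0.95 (limma adjusted p = 7.2e-03) in the double versus the single mutant.

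Beside SPG5, the proteasome and Hub1 list held 12 tested genes, of which none was higher in any comparison and 4, 1 and 2 were lower in the double mutant against the wild type, the double versus the single mutant and the single mutant versus wild type, in that order. These counts moved with the settings. Against the wild type, the 4 lower genes of the double mutant became 7 without double-mutant replicate 1, and 2 without either wild-type array, with median centring, with either block or with only the 2 strains fitted. The 2 lower genes of the single mutant became 6 with only the 2 strains fitted, 4 without double-mutant replicate 2, and 1 without single-mutant replicate 3, without either wild-type array or with the module block. Between the mutants, 2 genes were higher without double-mutant replicate 2 and 1 with median centring, and with no filter on dim probe sets 1 gene was higher in each mutant against the wild type. UBP6, a deubiquitinating enzyme of the proteasome, fell by 0.54 in the double (limma adjusted p = 5.7e-04) and by 0.61 in the single mutant (limma adjusted p = 7.5e-04), each against the wild type. RPT4, a proteasome ATPase gene, fell by 0.34 in the double mutant against the wild type (limma adjusted p = 4.3e-03). Its call against the single mutant (-0.19, limma adjusted p = 0.042) ended with median centring (-0.06, limma adjusted p = 0.516), with either block, with only the 2 strains fitted, and without any 1 array other than double-mutant replicates 1 and 2. The call of RPT3 in the single mutant versus wild type (-0.38, limma adjusted p = 0.023) ended with the module block and without either wild-type array or single-mutant replicate 3.

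Over the 8 arrays, likeness between genes was measured as Pearson's r of log2(signal + 121), given as a description since the arrays fall into 3 strains. SPG4 and SIP18 were most alike within the 10 genes (r = 0.999), PMA2 and HBT1 had r = 0.997, and RGI1 was negatively correlated with all the others, at -0.57 with SPG5 to -0.95 with PMA2. Outside the 10 genes, the one most like SPG1 was ATG8, a ubiquitin-like protein of autophagy (r = 0.999), whose signals were 481, 479.9 and 428 in the double mutant, 2383, 2583 and 2527 in the single mutant, and 3313 and 3341 in the wild type. The nearest to RGI2 was PDH1, of propionate breakdown (r = 0.999), to SPG4 ADY2, an acetate transporter gene (r = 0.999), and to SIP18 ATO3, a gene of ammonium export (r = 0.998). GRE1 was nearest to the autophagy gene ATG31 (r = 0.998), HBT1 to MOH1 (r = 0.997), PMA2 to PBN1 (r = 0.996), XBP1 to MDY2 (r = 0.996), RGI1 to the ribosomal protein gene RPS24B (r = 0.996) and SPG5 to CKB1, a casein kinase subunit gene (r = 0.973). Such likeness was common for some of these genes, with r above 0.99 in 78 genes for SPG1 and 72 for RGI2, and rare for others, with 1 for RGI1 and 0 for SPG5.

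The 10 genes are not neighbours of each other: the closest pair, SPG5 and SIP18 on chromosome XIII, has 17 annotated protein genes between them. Of their 20 directly flanking protein genes 14 were tested. In the double mutant against the wild type 5 of these were lower and 5 higher, beside 36.6% and 37.9% of all probe sets. In the double versus the single mutant 5 were lower and 4 higher, beside 35.8% and 31.8%. In the single mutant versus wild type 6 were lower and 1 higher, beside 22.1% and 28.5%. The median log2 fold changes of these flanking genes were -0.04, 0.02 and -0.21. At least 2-fold lower were 3 of the 14 in the double mutant against the wild type, 2 against the single mutant and 2 in the single mutant versus wild type, beside 11.5%, 6.68% and 1.39% of all probe sets in that order.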

How the data were processed

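RNA was measured on 8 Affymetrix arrays. The authors deposited 1 intensity per probe set, on a linear scale; per the submitters' processing notes it was made with GCOS and MAS5, of versions not given in the sources used here. Yeast genes were named from GEO's platform annotation, updated with RefSeq's table of assembly R64 (5498 probe sets, 5449 genes). Instrument records gave fluidics station and module.

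The pseudocount of 121 is the 10th percentile of yeast signals (120.9) rounded up. Arrays were not normalized further, and the dimmest 20% of probe sets were left out. Strains were compared in 1 fit with limma 3.58.1 in R 4.3.3 (lmFit, eBayes with an intensity trend), with Benjamini-Hochberg adjustment over 4398 probe sets (4372 genes). The fit was tested on simulated data. Figures used matplotlib 3.10.9.

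The genes and lists were chosen with earlier results of these data known. Named are the 10 genes, ESA1, PMA1, for each list and comparison the 2 called genes of smallest p, and for each of the 10 genes the gene most like it; others are marked as named after their values were seen. Several probe sets of a gene were represented by the brightest. Of 87 listed genes 84 had a probe set, and promoter and protein sequences were not analysed here. The module block, by module number alone although stations differed between strains, was added after seeing the data. Alternatives covered the pseudocount, filter, normalization, trend, blocks and each array left out. Precision is limited by how few arrays there are.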

Additional observations from a re-analysis of the deposited data

How the results depend on the processing

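The 19 alternatives, including each array left out in turn, gave 570 log2 fold changes of the 10 genes. Of these, 527 moved by less than the spread between replicates, 42 moved further and 1 turned round. That 1 was RGI1 in the double versus the single mutant, -0.11 and called lower with quantile normalization. Many of the 527 could not move, so the count overstates how stable the values are. Changes to filter or trend, fitting only the strains compared, and leaving out an array of another strain cannot alter a log2 fold change. Nor can the blocks in the double versus the single mutant, where RGI1 stayed at 0.15 with the module block. Leaving out the dimmest 50% of probe sets gave 2092 called probe sets in the double mutant against the wild type (3277), 1930 in the double versus the single mutant (2971) and 1377 in the single mutant versus wild type (2227), since fewer were tested. With 1 array left out, the last count ran from 1406 to 2516 and that of pathway genes from 23 to 48 (43 with all arrays). With 1 wild-type array, that array is assumed to vary like the other strains. Of the 10 genes, 9 to 10, 8 to 10 and 5 to 8 were called in these comparisons over all alternatives. With the replicate number as a block the called probe sets were 3196, 2894 and 2033, and with the module as a block 3173, 2880 and 1987; the labels do not say that numbers mark shared cultures, and correlations of same-numbered arrays ran from -0.09 to 0.14, so no pairing was used. The blocks ended the call of SIP18 in the single mutant versus wild type, and the module block that of RGI1 in the double versus the single mutant. Median centring moved the median of all probe sets in that comparison to 0.11, against -0.02.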
